A study of Mus musculus with 40 samples.

Results

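Ribosome assembly factors are the proteins that cut, fold and modify ribosomal RNA in the nucleolus and join it to ribosomal proteins, without being part of the finished ribosome. Transcripts of 50 such genes, listed by symbol with earlier results of these data known, were followed on 39 Affymetrix mouse arrays hybridized with poly(A) RNA of early B6D2 embryos. Of the 50 genes, 49 had a probe set of their own and were among the 14916 genes tested. The only probe set of Mrto4, a factor of the 60S subunit, is listed for 3 genes, so its values are described and not tested.

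The embryos had been made by somatic cell nuclear transfer (SCNT) with cumulus cells of B6D2 females as donors, by parthenogenesis or by fertilization, and were collected at the 2-cell and 1-cell stages. SCNT and fertilized embryos were in addition kept in α-amanitin, a toxin that blocks RNA polymerase II, which gives 10 groups. Each group has 4 arrays, except the untreated 1-cell SCNT embryos with 3. The labels spell out amanitin for SCNT samples. For fertilized samples the treatment was read from the letter A in the sample name and from the design text, which lists such a group. MEMα is named as the medium of SCNT embryos and KSOM for a single fertilized sample, so medium and origin cannot be told apart. The number of embryos, the dose and the hours of culture are not given in the sources used here. Nor do these say whether replicates came from separate collections, so a p-value measures the spread between these samples, which may be technical.

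In growing cells, RNA polymerase I makes a long precursor of ribosomal RNA. Proteins guided by box C/D and box H/ACA small nucleolar RNAs methylate it or turn uridine into pseudouridine, the small-subunit processome shapes the 40S portion, and a further set of factors assembles and exports both subunits. The mouse oocyte stores ribosomes and transcripts and becomes nearly silent when fully grown, and the embryo's own genome is switched on in a minor wave in the 1-cell embryo and a major wave in the 2-cell embryo.

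Values are log2 of the deposited intensity plus a constant of 6.9, quantile normalized, and a difference of 1 on this scale is a doubling. A member was called where the Benjamini-Hochberg adjusted p of limma's moderated test was under 0.05. All values are relative to the other transcripts on an array, and fewer cells of a type and less RNA per cell cannot be told apart.

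Promoters of 44 of the 50 members were found in RefSeq (GRCm38.p6), each taken as the 250 bases before the annotated start. Both strands were searched for CCGGAAGT, a core recognized by ETS-family factors, which stood in 8 member promoters (18.2%) and in 2.93% of all 27025 promoters of that length. The surroundings of these matches are shown because the 8 genes include the member that fell most with amanitin (Surf6), the one that differed most between SCNT and fertilized embryos under amanitin (Nip7) and one whose chosen probe set was not called with amanitin (Nvl). Capitals mark the motif, which reads ACTTCCGG where it lies on the other strand, and each sequence runs in the direction of its gene.
Gar1 (chr3:129831423-129831450, minus strand): gcgccgccacACTTCCGGaaacgtcgcg
Heatr1 (chr13:12395349-12395374, plus strand): tagtgagaagCCGGAAGTtcctatga
Ltv1 (chr10:13193218-13193245, minus strand): gccccacctcCCGGAAGTccccgggaag
Ltv1 (chr10:13193176-13193203, minus strand): ggctcacgcaACTTCCGGctacagccta
Nhp2 (chr11:51619740-51619767, plus strand): acttgaaaacCCGGAAGTgatgtcggag
Nip7 (chr8:107056764-107056791, plus strand): ctttcggtccCCGGAAGTccgccacggt
Nvl (chr1:181144205-181144226, minus strand): tgcgggggggACTTCCGGtgct
Surf6 (chr2:26902888-26902906, minus strand): cgcataagatACTTCCGGc
Utp3 (chr5:88554228-88554255, plus strand): cggcttcacgCCGGAAGTcaccagagag
Utp3 (chr5:88554314-88554341, plus strand): gcgttcctacCCGGAAGTtttcattcgc
Between the motif and the start that ends the window lay 1 base in Surf6, 8 in Heatr1 and 15 in Nhp2, against 216 for the farther copy in Utp3. For Nvl the gene annotation ends at 181144214, inside the motif, so no distance is given. CACGTG, the E-box bound by MYC and MAX, stood in 3 member promoters (6.82%), against 6.05% of all promoters. AAGATGGC, the core of the YY1 site, stood in 1 (2.27%, against 1.59%), TATAAA in 2 (4.55%, against 13%), and the palindromic Kaiso (ZBTB33) motif in 0 of 44 (against 0.407%). No member promoter held matches to more than 1 of these motifs. The median GC content was 57.8% in member promoters and 52% in all promoters. A match describes letters only, and the 5 motifs were picked with expression values known.

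The whole windows of 3 members with unlike behaviour are given for comparison. Surf6 fell most with amanitin, Nip7 fell far more in SCNT than in fertilized embryos, and Riok1 rose with amanitin. Only the ETS motif is in capitals, and the Riok1 window has none of the 5 motifs.
Surf6 (chr2:26902888-26903137, minus strand): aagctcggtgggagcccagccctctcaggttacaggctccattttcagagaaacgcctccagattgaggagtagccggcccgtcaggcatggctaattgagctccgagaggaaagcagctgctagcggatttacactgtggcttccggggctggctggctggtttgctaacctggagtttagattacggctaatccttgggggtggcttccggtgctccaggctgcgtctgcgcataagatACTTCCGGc
Nip7 (chr8:107056627-107056876, plus strand): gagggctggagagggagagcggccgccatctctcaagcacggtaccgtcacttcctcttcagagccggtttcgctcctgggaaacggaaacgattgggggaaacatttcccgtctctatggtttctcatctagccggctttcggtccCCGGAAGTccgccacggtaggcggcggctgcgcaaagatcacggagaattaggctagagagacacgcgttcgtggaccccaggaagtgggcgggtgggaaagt
Riok1 (chr13:38036739-38036988, plus strand): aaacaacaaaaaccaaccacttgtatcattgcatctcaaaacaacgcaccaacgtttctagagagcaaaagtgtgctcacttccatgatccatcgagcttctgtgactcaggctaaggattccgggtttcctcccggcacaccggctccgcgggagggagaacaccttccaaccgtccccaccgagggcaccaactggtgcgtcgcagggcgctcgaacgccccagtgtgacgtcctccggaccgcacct

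Members were at their highest in untreated 2-cell embryos and at their lowest in 2-cell embryos kept in amanitin. The median over the 49 members averaged 6.97 ± 0.09 with amanitin and 10.12 ± 0.08 without in 2-cell SCNT embryos, 9.35 ± 0.07 in 2-cell parthenogenetic embryos, and 7.40 ± 0.08 with amanitin and 10.36 ± 0.01 without in 2-cell fertilized embryos (SD, n = 4 each). At the 1-cell stage it was 8.69 ± 0.03 with amanitin (n = 4) and 8.88 ± 0.07 without (n = 3) in SCNT embryos, 8.16 ± 0.08 in parthenogenetic embryos, and 8.82 ± 0.06 with amanitin and 8.92 ± 0.06 without in fertilized embryos (n = 4 each). All 49 members had a group mean above the overall median of 5.34 in each untreated 2-cell group. With amanitin 38 did in 2-cell SCNT and 41 in 2-cell fertilized embryos, and 44 to 46 did at the 1-cell stage.

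**Figure D1:**
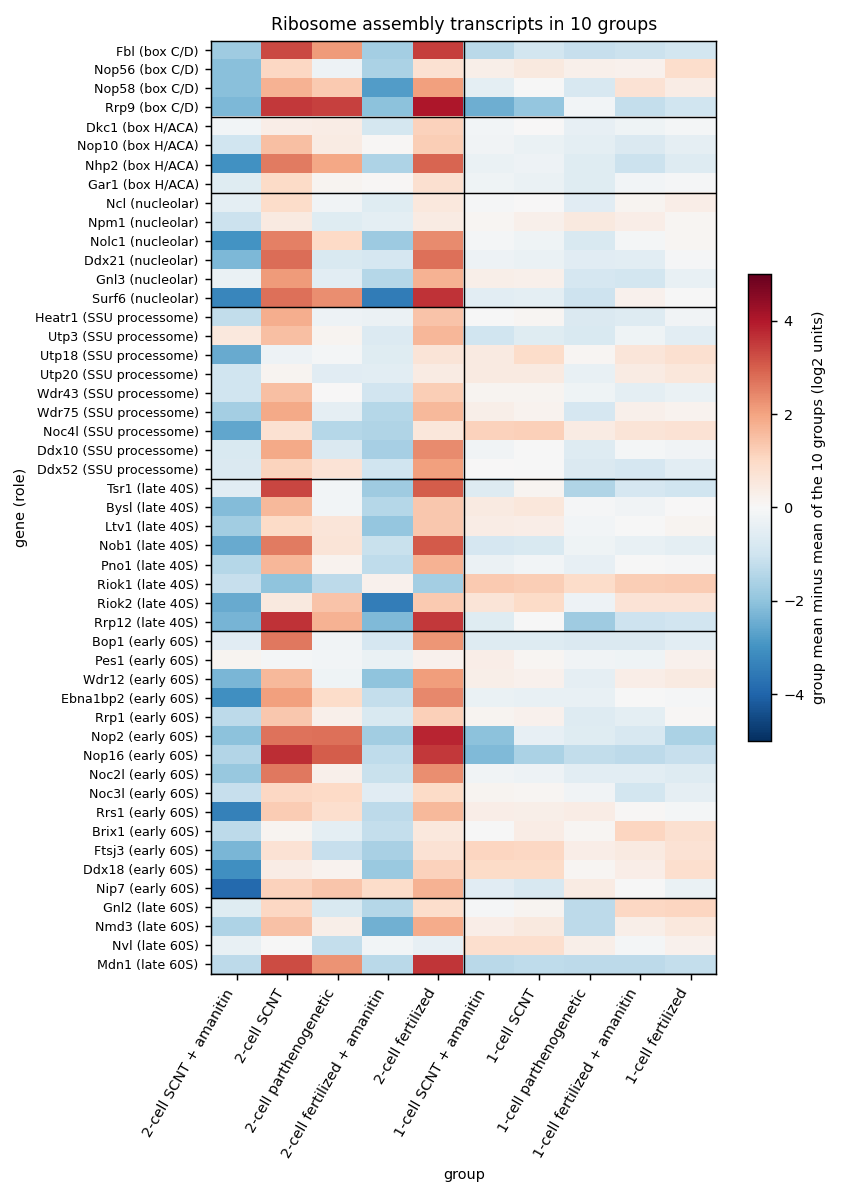
Group means of the 49 tested members (rows, by role) in the 10 groups (columns, 2-cell left of 1-cell), as log2 difference from each member's own mean over the groups. Red is higher and blue lower than that mean; most members are red in the untreated 2-cell columns and blue in the 2-cell amanitin columns, and Riok1 is blue in the untreated 2-cell columns.

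Control probe sets and cell-type markers moved with some of these groups, and their part in the results was not tested. The 18S ribosomal RNA control probe sets averaged 12.77 to 13.58 with amanitin and 9.47 to 11.53 without on 2-cell SCNT arrays, and 12.67 to 12.99 with amanitin and 9.67 to 11.05 without on 2-cell fertilized arrays. Bacterial poly(A) control probe sets averaged 10.04 to 10.58 in 2-cell SCNT embryos with amanitin and 3.52 to 3.88 in all 1-cell SCNT embryos, against 5.93 to 9.15 in the other groups. The 12 oocyte markers, all measured, had a summed intensity of 23092.9 to 29237.9 with amanitin and 10621.6 to 15665.2 without in 2-cell SCNT and fertilized embryos, and of 21778.8 to 23204.7 in 2-cell parthenogenetic embryos. Of 11 markers of the 2-cell stage 8 were measured, with sums of 285.684 to 643.955 in 2-cell embryos with amanitin and 17010.1 to 25199.5 in those without. The 14 cumulus markers summed to 851 to 1112.31 with amanitin and 2565.62 to 4320.14 without in 2-cell SCNT and fertilized embryos, and without Amhr2 they summed to 809.156 to 1061.38 with amanitin and 447.995 to 627.328 without. Markers of spermatids (8) and blood (4 of 5 measured) summed to at most 298.692 and 100.103.

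With amanitin, 46 members were lower and 1 was higher in SCNT 2-cell embryos, where 29.7% of all genes tested were lower and 39.6% higher (69.2% called in either direction). In fertilized 2-cell embryos 47 members were lower and 1 was higher, where 25.8% of all genes were lower and 38.6% higher (64.3% in either direction). The median log2 difference of the members was -3.09 in SCNT and -2.99 in fertilized embryos, against 0.28 and 0.27 over all genes. Treated and untreated arrays did not overlap for 47 members in SCNT embryos, as for 60.7% of all genes, and for 48 in fertilized embryos, as for 60%. These comparisons share no array, and 46 members were lower in both, 100% of those in SCNT and 97.9% of those in fertilized embryos. The share of all genes lower in both was not computed, so this overlap is not read as a trait of the members. Pes1 was called in fertilized embryos, Nvl in neither, and Riok1 was the member that rose in both. Mdn1 and Nop16, counted among the lower ones, were above the overall median on 12 arrays each, all of untreated 2-cell embryos. They passed the filter through the groups where they are high and had to differ, so their calls carry no weight here.

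**Figure D2:**
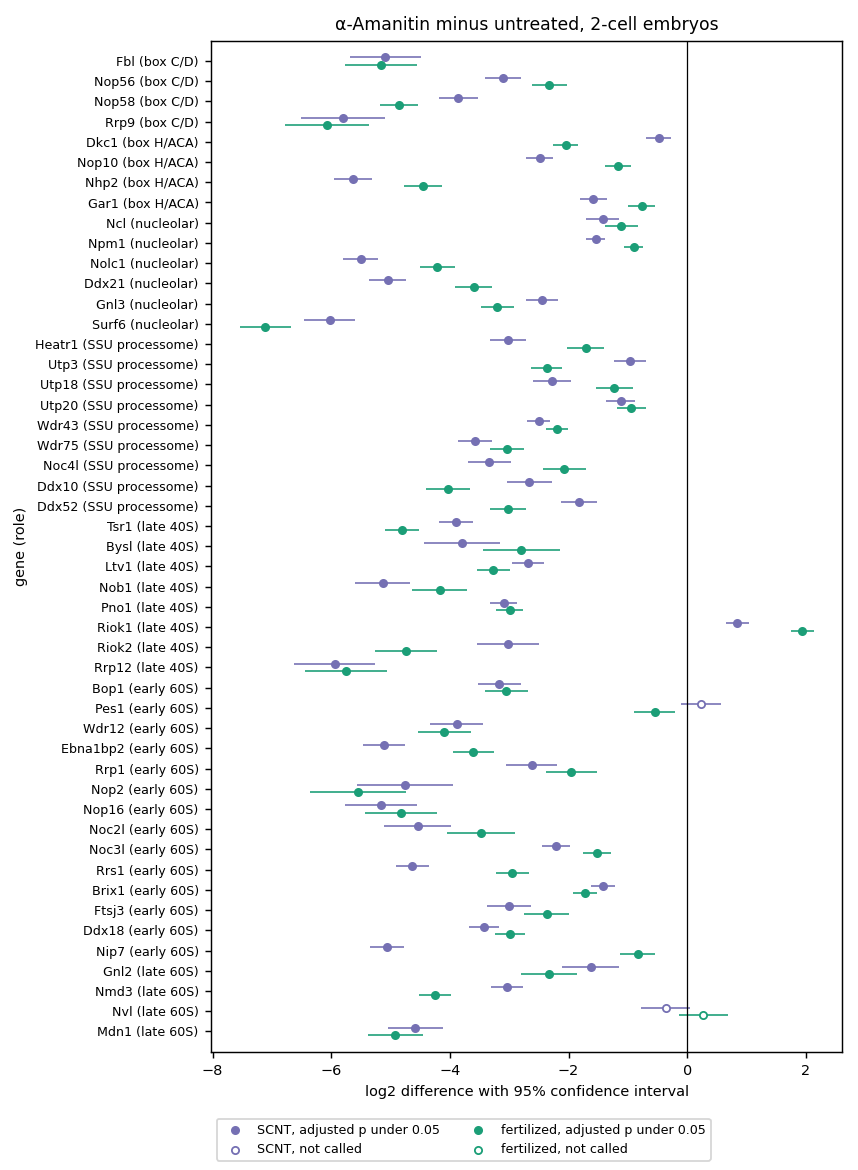
Log2 difference, α-amanitin minus untreated, of the 49 members in 2-cell SCNT (purple) and fertilized (green) embryos, with 95% confidence intervals of the fit. Filled points passed an adjusted p of 0.05; 46 filled SCNT points and 47 filled fertilized points lie left of 0, and Riok1 lies right of it in both.

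All 4 proteins of box C/D particles were lower in both origins. Fibrillarin (Fbl), the methyltransferase of these particles, fell by 5.09 in SCNT and by 5.16 in fertilized embryos on the log2 scale. Its partner Nop58 fell by 3.86 in SCNT and by 4.86 in fertilized embryos. Rrp9 is the protein specific to the U3 particle, which takes part in precursor cleavage. In SCNT embryos Rrp9 read 4.14, 5.13, 3.97 and 4.36 with amanitin and 9.70, 9.93, 10.46 and 10.71 without. In fertilized embryos it read 4.94, 4.33, 4.87 and 4.33 with amanitin and 10.78, 10.86, 10.66 and 10.44 without. Every treated array was under the overall median and every untreated array above it, with differences of -5.80 (SE 0.35, limma adjusted p = 4.66e-18) in SCNT and -6.07 (SE 0.35, adjusted p = 1.61e-18) in fertilized embryos. Nop56, a scaffold of the same particles, read 6.73, 7.33, 7.16 and 7.37 with amanitin and 10.11, 10.48, 10.32 and 10.08 without in SCNT embryos. In fertilized embryos Nop56 read 7.34 to 7.96 with amanitin and 9.89 to 10.10 without. Its groups did not overlap either, but the fall was the smallest of the 4 in both origins, at 8.59-fold in SCNT and 5.01-fold in fertilized embryos.

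The box H/ACA proteins direct pseudouridine formation and are shared with telomerase. Nhp2, which binds the guide RNA, read 5.72, 6.01, 6.56 and 5.39 with amanitin and 11.43, 11.54, 11.59 and 11.62 without in SCNT embryos. In fertilized embryos Nhp2 read 7.39, 7.43, 7.35 and 7.55 with amanitin and 11.87, 11.82, 11.81 and 12.02 without. The treated SCNT arrays were the lowest, and the fall was 49.5-fold in SCNT and 21.8-fold in fertilized embryos (limma adjusted p = 2.01e-28 and 4.53e-25). Gar1 moved less and read 9.80, 9.50, 9.52 and 9.75 with amanitin and 11.16, 11.01, 11.33 and 11.40 without in SCNT embryos. In fertilized embryos Gar1 read 10.33, 10.45, 10.17 and 10.27 with amanitin and 10.89, 11.23, 11.15 and 11.01 without. Its groups were separate in both origins, with differences of -1.58 in SCNT and -0.77 in fertilized embryos (SE 0.11 each). Dkc1, the pseudouridine synthase, fell by 0.48 in SCNT and by 2.05 in fertilized embryos on its chosen probe set. Nop10, a small subunit, fell by 2.49 in SCNT and by 1.17 in fertilized embryos.

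All 6 nucleolar proteins of more general function were lower with amanitin in both origins. Surf6, a nucleolar matrix protein, read 3.48, 3.94, 4.14 and 3.41 with amanitin and 9.51, 9.80, 9.94 and 9.81 without in SCNT embryos. In fertilized embryos it read 3.33, 3.34, 3.17 and 4.18 with amanitin and 10.46, 10.58, 10.71 and 10.72 without. All 8 treated arrays were below the overall median, and the difference was -6.02 in SCNT and -7.11 in fertilized embryos (SE 0.21 each, limma adjusted p = 2.39e-25 and 2.15e-27), the largest of any member in both. At such low levels its size depends on the added constant, and in fertilized embryos it was -5.88 with the constant at the 40th percentile and -8.04 with it at the 5th. Npm1, nucleophosmin, an abundant nucleolar chaperone, read 11.59, 11.58, 11.26 and 11.61 with amanitin and 12.90, 13.00, 13.11 and 13.19 without in SCNT embryos. In fertilized embryos Npm1 read 11.88, 12.31, 12.15 and 12.12 with amanitin and 12.97, 13.08, 13.00 and 13.01 without. The treated arrays were lower in both, by 2.91-fold in SCNT and 1.87-fold in fertilized embryos. Nolc1, which binds small nucleolar particles, fell by 5.50 in SCNT and by 4.21 in fertilized embryos.

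The small-subunit processome packs the 5′ part of the precursor, and its 9 members were lower in both origins, with medians of -2.50 in SCNT and -2.20 in fertilized embryos. Ddx10, a helicase, read 6.76, 6.46, 6.87 and 6.72 with amanitin and 8.89, 9.27, 9.68 and 9.62 without in SCNT embryos. In fertilized embryos Ddx10 read 5.63, 6.40, 5.22 and 5.96 with amanitin and 9.61, 9.92, 9.84 and 9.97 without. It was lower on each treated array than on any untreated one, by 6.33-fold in SCNT and 16.4-fold in fertilized embryos (limma adjusted p = 4.21e-16 and 1.56e-21). Utp20, a large scaffold, read 7.87, 7.68, 7.68 and 8.10 with amanitin and 9.21, 8.71, 8.93 and 8.95 without in SCNT embryos. In fertilized embryos Utp20 read 8.27, 8.43, 8.19 and 8.29 with amanitin and 9.28, 9.17, 9.22 and 9.26 without. Its groups did not overlap, and it was 2.18-fold lower in SCNT and 1.92-fold lower in fertilized embryos. For Wdr43, also of the processome, the probe set that stands for the gene fell by 2.50 in SCNT and by 2.20 in fertilized embryos. Another probe set listed for it rose by 1.71 in SCNT and 0.50 in fertilized embryos, so its direction rests on the choice of probe set.

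Of the 8 late 40S factors 7 were lower in both origins. Rrp12, an export factor, read 3.17, 3.13, 3.14 and 3.23 with amanitin and 8.70, 8.97, 9.34 and 9.43 without in SCNT embryos. In fertilized embryos it read 3.46, 3.28, 3.17 and 3.23 with amanitin and 9.02, 9.22, 8.86 and 9.05 without. The treated arrays lay close together at a very low level, and the difference was -5.94 in SCNT and -5.75 in fertilized embryos (SE 0.34 each, limma adjusted p = 9.53e-19 and 3.66e-18). In fertilized embryos it was -4.44 with the constant at the 40th percentile and -6.82 with it at the 5th, so its size is uncertain, as is that of Rrp9, at -5.38 and -6.41. Nob1, the nuclease that makes the final cut of 18S ribosomal RNA, fell by 5.14 in SCNT and by 4.18 in fertilized embryos. Tsr1, a late-acting factor related to GTPases, fell by 3.90 in SCNT and by 4.80 in fertilized embryos.

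Riok1, an atypical kinase of the last 40S steps, went the other way. In SCNT embryos it read 9.87, 10.27, 9.88 and 9.98 with amanitin and 8.91, 9.37, 9.06 and 9.27 without. In fertilized embryos it read 11.31, 11.37, 11.28 and 11.56 with amanitin and 9.37, 9.43, 9.47 and 9.51 without. Every treated array was above every untreated array of its origin, with differences of 0.84 (SE 0.10, limma adjusted p = 2.64e-10) in SCNT and 1.94 (SE 0.10, adjusted p = 1.08e-20) in fertilized embryos. Of its other probe sets, looked at after these values were seen, 2 gave the same direction, at 1.38 and 1.68 in SCNT and 2.45 and 2.73 in fertilized embryos, and the remaining pair was not called. Its relative Riok2 fell by 3.02 in SCNT and by 4.74 in fertilized embryos, although 1 of its other probe sets was 0.92 higher with amanitin in SCNT embryos (limma adjusted p = 0.039).

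**Figure D3:**
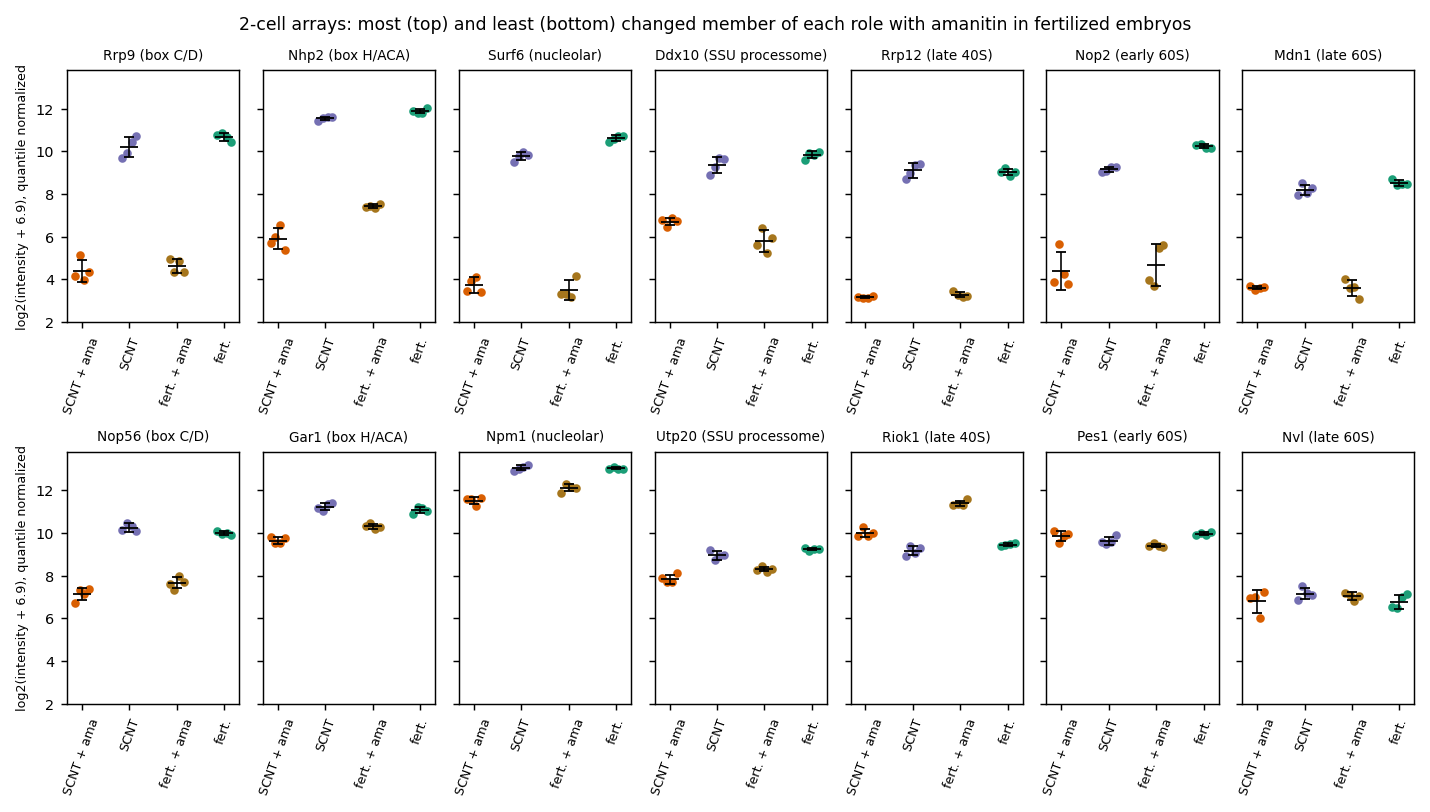
Log2 values on each 2-cell array (points) with mean and SD (bars) of the members with the largest (top) and the smallest (bottom) absolute amanitin difference of each role in fertilized embryos; from left, SCNT with amanitin, SCNT, fertilized with amanitin and fertilized. In the top row treated and untreated means differ by 2.66 to 7.11 log2 units; in the bottom row Riok1 is higher with amanitin and Pes1 and Nvl differ little.

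The 14 early 60S factors are the largest group. Nop2, a methyltransferase of 28S ribosomal RNA, read 3.86, 5.68, 4.27 and 3.77 with amanitin and 9.03, 9.06, 9.26 and 9.26 without in SCNT embryos. In fertilized embryos Nop2 read 3.99, 3.70, 5.46 and 5.61 with amanitin and 10.29, 10.36, 10.15 and 10.15 without. The treated arrays were scattered yet all below the untreated ones, with differences of -4.76 in SCNT and -5.55 in fertilized embryos (SE 0.40 each, limma adjusted p = 8.11e-14 and 1.29e-15). In fertilized embryos the Nop2 difference was -4.84 with the constant at the 40th percentile and -5.95 with it at the 5th. Bop1 and Wdr12, partners in the PeBoW complex of 28S maturation, were 8.98-fold and 14.8-fold lower in SCNT and 8.27-fold and 17.1-fold lower in fertilized embryos. Pes1 completes that complex and read 10.09, 9.53, 9.87 and 9.94 with amanitin and 9.57, 9.49, 9.56 and 9.89 without in SCNT embryos. In fertilized embryos Pes1 read 9.40, 9.51, 9.37 and 9.33 with amanitin and 9.90, 9.99, 9.89 and 10.03 without. In SCNT embryos its arrays overlapped and the 95% interval of the difference ran from -0.11 to 0.57, and in fertilized embryos it was lower by a log2 difference of -0.55 (SE 0.17, limma adjusted p = 0.00423). Brix1, another 60S assembly factor, fell by 1.43 in SCNT and by 1.73 in fertilized embryos on its chosen probe set, while its other probe set rose by 1.22 in SCNT and 1.32 in fertilized embryos.

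Late 60S factors remodel and export the large subunit. Mdn1, a very large ATPase that removes factors from the particle, read 3.69, 3.51, 3.60 and 3.67 with amanitin and 7.98, 8.51, 8.06 and 8.27 without in SCNT embryos. In fertilized embryos Mdn1 read 4.04, 3.62, 3.64 and 3.09 with amanitin and 8.72, 8.42, 8.46 and 8.48 without. All treated arrays were below the overall median. Mdn1 passed the filter through the untreated 2-cell groups, where it is high, so neither size nor direction is read. In fertilized embryos the difference was -3.80 with the constant at the 40th percentile and -5.75 with it at the 5th, and another Mdn1 probe set was not called in either origin. Nvl, also an ATPase of 60S assembly, read 6.93, 6.99, 6.0 and 7.23 with amanitin and 6.84, 7.49, 7.18 and 7.11 without in SCNT embryos. In fertilized embryos Nvl read 7.20, 7.10, 6.81 and 7.05 with amanitin and 6.52, 6.47, 6.99 and 7.12 without. The arrays overlapped in both origins, and the 95% interval of the difference ran from -0.78 to 0.05 in SCNT and from -0.14 to 0.68 in fertilized embryos. Another Nvl probe set was called higher with amanitin, by 0.93 in SCNT and 0.68 in fertilized embryos (limma adjusted p = 6.28e-05 and 0.00268), so the result for Nvl rests on the choice of probe set. Nmd3, the export adaptor of the 60S subunit, was 8.22-fold lower in SCNT and 19.1-fold lower in fertilized embryos. The shared probe set of Mrto4 averaged 6.0 with amanitin and 10.67 without in SCNT, and 8.32 with amanitin and 10.11 without in fertilized embryos.

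The amanitin difference itself differed between SCNT and fertilized embryos for 31 members, with a higher value in SCNT embryos for 12 and a lower one for 19, where 17.8% and 21.1% of all genes were called (38.9% in either direction). Nip7, which joins early 60S particles, differed most. In SCNT embryos it read 5.90, 5.83, 6.20 and 5.47 with amanitin and 10.77, 10.91, 11.06 and 10.91 without. In fertilized embryos it read 10.54, 10.65, 10.78 and 10.63 with amanitin and 11.30, 11.43, 11.49 and 11.74 without. Treated and untreated arrays were separate in both, but the fall was 33.4-fold in SCNT and 1.79-fold in fertilized embryos, and the interaction was -4.22 (SE 0.20, limma adjusted p = 1.55e-19). The other Nip7 probe set, with a mean of 5.97 and above the overall median on 37 of 39 arrays, had no called amanitin difference in either origin, and with the mean of both probe sets the interaction was -1.99. Rrs1 and Ebna1bp2, both early 60S factors, also fell more in SCNT embryos (interactions -1.68 and -1.51), and Riok2, Dkc1 and Utp3 fell more in fertilized embryos (interactions 1.72, 1.57 and 1.40). A further Dkc1 probe set gave an interaction of 1.69. The last Dkc1 probe set fell by 4.91 in SCNT and by 4.67 in fertilized embryos (interaction -0.245, limma adjusted p = 0.698). The Dkc1 interaction thus rests on the choice of probe set. So does that of Ebna1bp2. Another of its probe sets, above the overall median on 37 arrays, had no called amanitin difference in either origin (interaction 0.094, limma adjusted p = 0.919). The poly(A) controls were highest in the treated 2-cell SCNT embryos, and their part in these differences was not tested.

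Between the 1-cell and the 2-cell stage without amanitin, 39 members rose and 7 fell in SCNT embryos (33 and 11 after median centring), where 26.3% of all genes rose and 34.4% fell (60.7% in either direction). In parthenogenetic embryos 32 rose and 7 fell (21 and 13 after median centring), where 21.7% and 27.4% of all genes did (49.1% in either direction). In fertilized embryos 38 rose and 3 fell, where 25.8% and 34.2% did (60% in either direction). The median of the members was 1.41 in SCNT, 0.72 in parthenogenetic and 1.63 in fertilized embryos, against -0.14, -0.04 and -0.12 over all genes. Stages did not overlap for 45 members in SCNT (62.8% of all genes), 38 in parthenogenetic (48.5%) and 39 in fertilized embryos (55%). The 18S control probe sets averaged 9.47 to 11.54 on untreated 2-cell and 12.79 to 13.40 on untreated 1-cell arrays. The oocyte markers summed to 10621.6 to 23204.7 at the 2-cell and 33002.9 to 45185.2 at the 1-cell stage without amanitin, and the part of either in the change between stages was not tested. Of the members that rose, 36 were shared by SCNT and fertilized embryos, 92.3% of the first set and 94.7% of the second, and 30 by parthenogenetic and fertilized embryos, 93.8% and 78.9%. Sharing over all genes was not computed, so these percentages are not read as a trait of the members. Bysl, Ddx10, Ddx21, Gnl3 and Wdr12 rose in SCNT and fertilized embryos and were not called higher in parthenogenetic embryos. The same calls for Npm1 and Wdr43 depend on the processing. Npm1, called lower by 1.09 at the 2-cell stage in parthenogenetic embryos, turned to -0.53 in SCNT and -0.11 in fertilized embryos after median centring and to -0.21 in SCNT embryos as deposited. Another Wdr43 probe set fell by 2.07 in SCNT and by 0.65 in fertilized embryos. In SCNT embryos other probe sets of Ddx10, Ddx21 and Wdr12 had no called rise (limma adjusted p = 0.0721, 0.0829 and 0.116). Other probe sets of Heatr1 (-2.18), Nolc1 (-1.58) and Noc3l (-1.17), members counted as risen in SCNT embryos, were called lower there.

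By role, 4 of 4 box C/D proteins rose in SCNT embryos and 3 of 4 in both other origins, with medians of 3.0 in SCNT, 2.69 in parthenogenetic and 3.04 in fertilized embryos. All 4 box H/ACA proteins were called higher in each origin, but Dkc1 by only 0.30 in SCNT embryos. There it was -0.22 after median centring, and another of its probe sets fell by 0.36 (limma adjusted p = 0.0184). Of the 9 processome members 6 rose and 3 fell in SCNT embryos, 4 rose and 1 fell in parthenogenetic embryos, and 6 rose in fertilized embryos. Of the 14 early 60S factors 10 rose and 2 fell in SCNT, 9 rose and 2 fell in parthenogenetic, and 11 rose and 1 fell in fertilized embryos.

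A few members were near or below the overall median in the 1-cell embryo. Mdn1 read 8.72, 8.42, 8.46 and 8.48 in 2-cell and 3.65, 3.51, 3.97 and 3.91 in 1-cell fertilized embryos. Rrp9 read 10.78, 10.86, 10.66 and 10.44 in 2-cell and 6.12, 6.15, 5.67 and 4.78 in 1-cell fertilized embryos. Nop2 read 10.29, 10.36, 10.15 and 10.15 in 2-cell and 5.41, 5.40, 4.37 and 4.20 in 1-cell fertilized embryos. For Rrp9 and Nop2 the 2-cell arrays were above the 1-cell arrays. Rrp9 rose by 5.01 (SE 0.35) and Nop2 by 5.39 (SE 0.40) log2 units, with limma adjusted p at most 3.21e-15. Rrp9 rose by 5.49 in SCNT and 3.54 in parthenogenetic embryos. Mdn1 and Nop16, a nucleolar 60S factor, were above the overall median in no 1-cell array and passed the filter through the untreated 2-cell groups. They had to be higher there, so no rise is read for them. Their calls among the members that rose carry no weight. Another probe set of Mdn1 fell by 0.93 in fertilized embryos (limma adjusted p = 0.0456).

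Riok1, Nvl and Brix1 fell between the stages in all 3 origins on their chosen probe sets. Brix1 fell by 0.25 in SCNT and 0.27 in fertilized embryos, and by 4.22 and 4.08 on its other probe set. Another Nvl probe set, above the overall median on all 39 arrays, was not called in SCNT (-0.30) or fertilized embryos (-0.15). The fall of Nvl thus rests on the choice of probe set. Riok1 read 9.37, 9.43, 9.47 and 9.51 in 2-cell and 12.27, 12.47, 12.48 and 12.51 in 1-cell fertilized embryos. All 1-cell arrays were higher, and the 2-cell level was 9.39-fold lower in SCNT, 4.59-fold lower in parthenogenetic and 7.95-fold lower in fertilized embryos (limma adjusted p at most 8.81e-22). With amanitin present Riok1 also fell, by 2.48 in SCNT and by 1.02 in fertilized embryos. Riok2 had a difference of -0.47 (limma adjusted p = 0.156) in SCNT embryos, of 1.66 in parthenogenetic and of 0.63 in fertilized embryos (SE 0.26 for both, adjusted p = 9.11e-07 and 0.0365). Its call in fertilized embryos was lost in several alternatives, among them median centring and the fits without 1-cell replicate 1 and without each of the 4 fertilized 2-cell replicates. One of its other probe sets fell by 2.16 (adjusted p = 9.79e-06) and another rose by 2.12 in fertilized embryos, so no direction is read for Riok2 there. Noc4l, of the processome, fell by 1.83 in parthenogenetic embryos, and Utp18, of the same complex, by 1.17 in SCNT embryos. Another Utp18 probe set, above the overall median on 5 arrays, rose by 0.93 in SCNT embryos (limma adjusted p = 0.0134). The direction for Utp18 there thus rests on the choice of probe set.

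**Figure D4:**
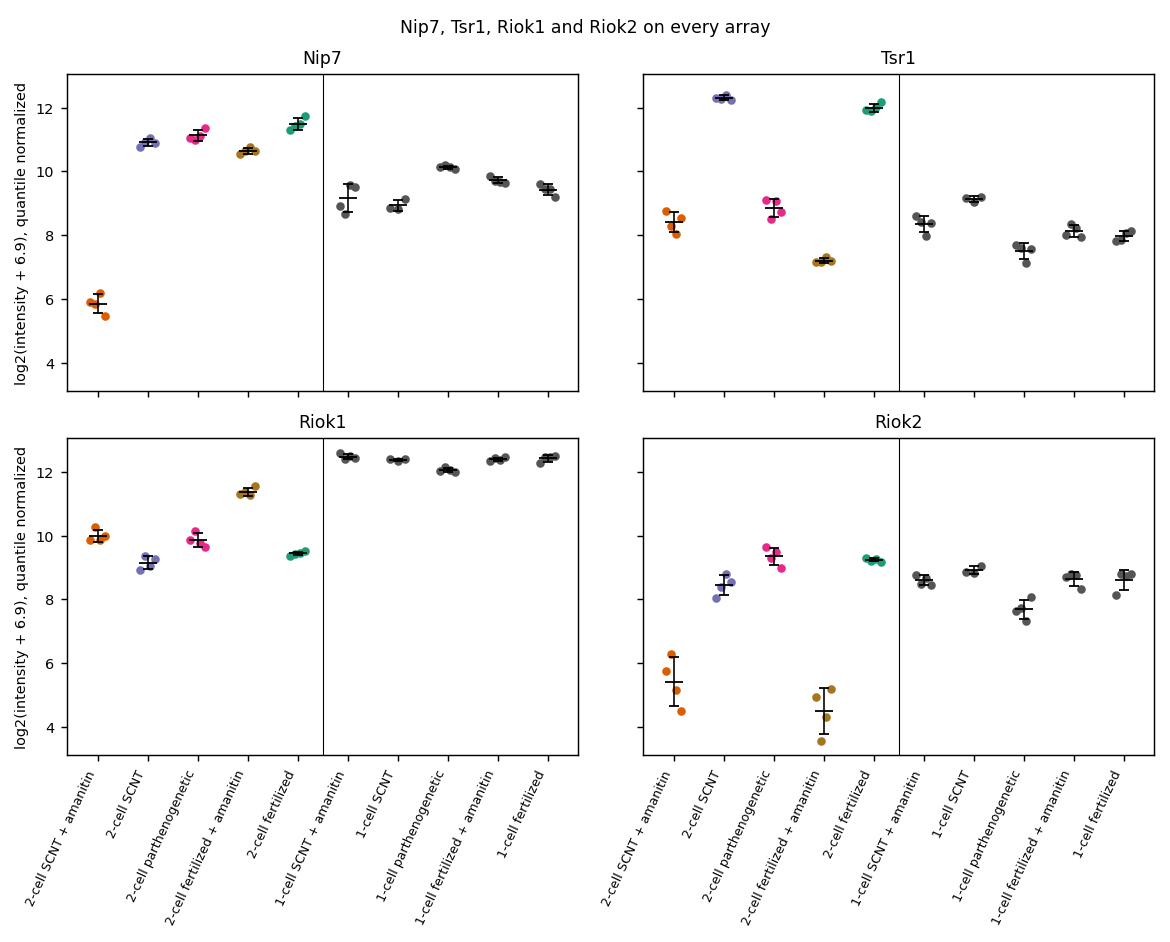
Log2 values on every array (points) with mean and SD (bars) of Nip7, Tsr1, Riok1 and Riok2, chosen after their values were seen, with 2-cell groups left of the line and 1-cell groups right of it. Nip7 is low in 2-cell SCNT embryos with amanitin, Tsr1 is high in untreated 2-cell SCNT and fertilized embryos, Riok1 is higher at the 1-cell than at the 2-cell stage, and Riok2 is low in the 2-cell groups with amanitin.

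With amanitin present, most members declined between the stages. In SCNT embryos 38 were lower and 2 higher at the 2-cell than at the 1-cell stage, where 29.8% and 25.6% of all genes were (55.4% in either direction), with a median of -1.42. In fertilized embryos 33 were lower and 3 higher, where 19% and 21.5% were (40.6% in either direction), with a median of -0.93. Of those that were lower 28 were shared, 73.7% of the SCNT and 84.8% of the fertilized set, with no such share computed over all genes. The largest falls in SCNT embryos were those of the helicase Ddx18 (-4.00, SE 0.13), Noc4l (-3.73, SE 0.18) and Rrs1 (-3.71, SE 0.14). In fertilized embryos they were those of Riok2 (-4.15, SE 0.26), Surf6 (-3.72, SE 0.21) and Nop58 (-3.52, SE 0.16), with limma adjusted p at most 2.5e-16 for these 6 values.

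No member rose in both origins with amanitin present. Utp3, a processome subunit, read 9.82, 9.52, 9.94 and 9.61 in 2-cell and 8.01, 8.62, 8.41 and 7.78 in 1-cell SCNT embryos with amanitin. The stages did not overlap, and it rose by 1.52 in SCNT and fell by 0.50 in fertilized embryos (SE 0.13 each). Nip7 read 10.54, 10.65, 10.78 and 10.63 in 2-cell and 9.86, 9.70, 9.68 and 9.64 in 1-cell fertilized embryos with amanitin. Its 2-cell arrays were all above the 1-cell arrays there, and it fell by 3.31 in SCNT (limma adjusted p = 5.83e-22) and rose by 0.93 in fertilized embryos (adjusted p = 1.14e-06, a call lost with the mean of its probe sets). Nop10 and Noc3l fell by 0.83 and 1.30 in SCNT and rose by 0.76 and 0.37 in fertilized embryos, where Noc3l turned negative after median centring. Nop16 was the other member called higher in SCNT embryos, but its means of 4.27 at the 2-cell and 3.55 at the 1-cell stage are both below the overall median, so no rise is read from it. Between the treated 2-cell groups 10 members were higher and 21 lower in SCNT embryos, where 18.6% and 24.6% of all genes were (43.2% in either direction), and Nip7 was 27.9-fold lower in them.

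Untreated 2-cell parthenogenetic embryos had less of most of these transcripts than fertilized ones. Of the members 43 were lower and 1 was higher, where 21% of all genes were lower and 26.4% higher (47.4% in either direction), and the median was -1.24, against 0.07 over all genes. Groups did not overlap for 46 members and for 45.3% of all genes. Ddx21, a nucleolar helicase, read 7.57, 7.91, 7.21 and 7.23 in parthenogenetic and 10.91, 11.09, 10.90 and 11.08 in fertilized embryos. Tsr1 read 9.12, 8.51, 9.06 and 8.72 in parthenogenetic and 11.94, 11.89, 12.01 and 12.18 in fertilized embryos. Ddx10 read 6.55, 7.08, 6.84 and 6.43 in parthenogenetic and 9.61, 9.92, 9.84 and 9.97 in fertilized embryos. Each parthenogenetic array was below each fertilized one, and the differences were -3.52 (SE 0.15), -3.15 (SE 0.14) and -3.11 (SE 0.19), with limma adjusted p at most 4.59e-17. All 9 processome, all 6 nucleolar and all 4 box H/ACA proteins were lower, with medians of -1.54, -1.33 and -0.79. Riok1 was higher by 0.42 (SE 0.10), a call lost after median centring. Rrp9, Riok2, Pes1, Nop16 and Noc3l were not called, and the 95% interval of Noc3l, an early 60S factor, ran from -0.21 to 0.27.

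Whether the change between the stages differed was tested directly. It was lower in parthenogenetic than in fertilized embryos for 30 members and higher for 2, where 15.7% and 19.8% of all genes were (35.4% in either direction). The largest such differences were those of Ddx21 (-3.00, SE 0.22), Tsr1 (-2.68, SE 0.20) and Nob1 (-2.66, SE 0.32). Between SCNT and parthenogenetic 2-cell embryos, a comparison that uses the same parthenogenetic arrays, 37 members were higher and 2 lower in SCNT embryos, where 24.4% and 30.1% of all genes were (54.5% in either direction). The differences were 3.55 for Ddx21, 3.46 for Tsr1 and 2.79 for Bop1.

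Untreated 2-cell SCNT embryos differed from fertilized ones in fewer members. Of these 13 were lower and 3 higher, where 16.3% and 14.3% of all genes were (30.6% in either direction). The 16 of 49 called in either direction are near that share of all genes. On the values as deposited 16 were lower and 1 was higher, and after median centring all 22 called members were lower. The median was -0.16, against -0.05 over all genes, and groups did not overlap for 21 members and for 31.3% of all genes. Lower were Nop2 (-1.08, SE 0.40), the helicase Ddx52 (-0.93, SE 0.15), Utp18 (-0.88, SE 0.15), Surf6 (-0.85, SE 0.21) and Dkc1 (-0.83, SE 0.10). Higher were nucleolin (Ncl, 0.41), nucleostemin (Gnl3, 0.37) and Wdr43 (0.26), the last of which another probe set put lower. The other probe sets of Ddx52, Utp18 and Ncl that passed the filter were not called. Among them another of Utp18 was at 0.57 and another of Ncl at -0.96 (limma adjusted p = 0.174 and 0.0521). The count fell to 9 without SCNT replicate 1 and to 10 without either SCNT replicate 2 or fertilized replicate 4. For Ddx21 the 95% interval of the difference ran from -0.28 to 0.35, and for Tsr1 from 0.02 to 0.59 (limma adjusted p = 0.105). Another Ddx21 probe set, above the overall median on 9 arrays, was lower in SCNT embryos by 1.61 (limma adjusted p = 0.000194). The result for Ddx21 thus rests on the choice of probe set. The change between the stages was lower in SCNT than in fertilized embryos for 11 members and higher for 3, where 10.4% and 8.62% of all genes were (19% in either direction; 11 and 1 as deposited, all 14 called ones lower after median centring), led by Nop2 (-2.28, SE 0.58).

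**Figure D5:**
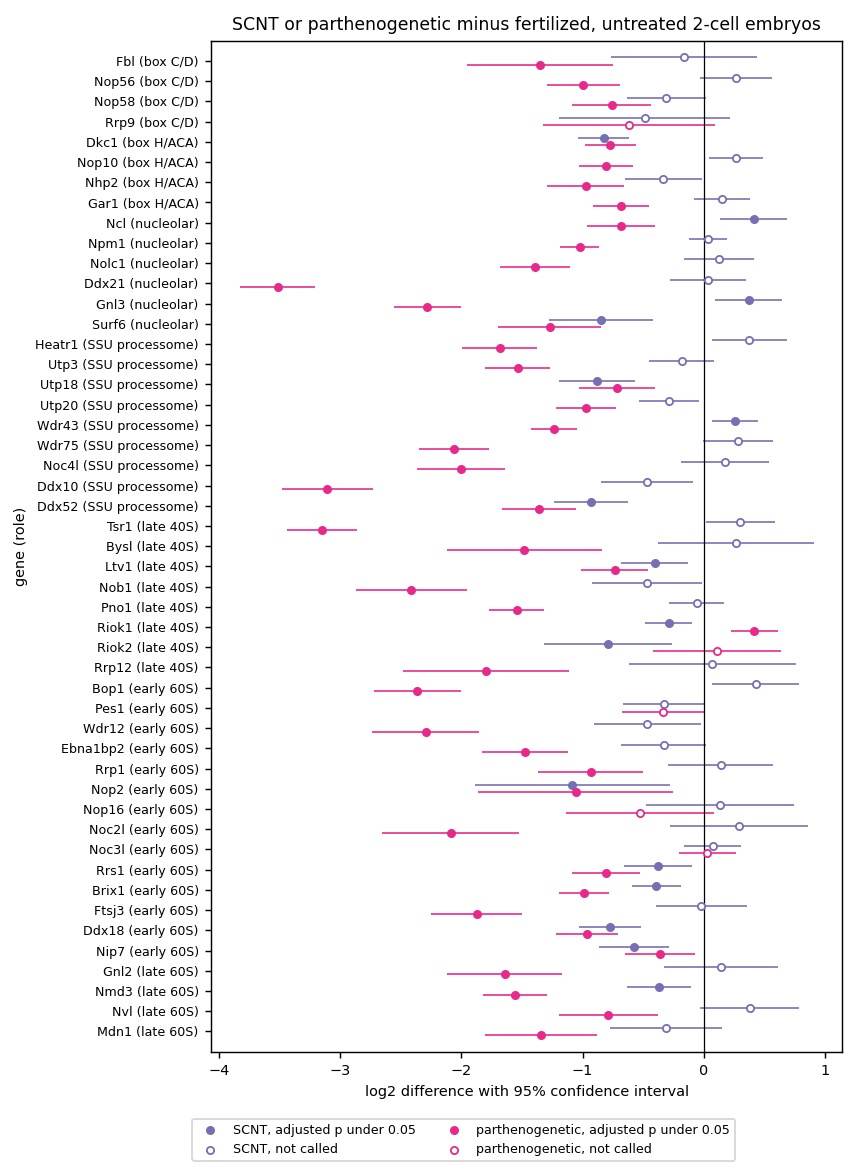
Log2 difference of SCNT (purple) and parthenogenetic (pink) from fertilized embryos for the 49 members in untreated 2-cell embryos, with 95% confidence intervals of the fit; filled points passed an adjusted p of 0.05. Both comparisons use the same fertilized arrays. SCNT points lie between -1.08 and 0.43, while parthenogenetic points reach -3.52 and 43 filled ones lie left of 0.

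At the 1-cell stage 23 members were lower and 3 higher in parthenogenetic than in fertilized embryos (17 and 5 after median centring), where 9.52% and 10.9% of all genes were (20.4% in either direction), with a median of -0.37. Gnl2, a nucleolar GTPase of the 60S subunit, read 7.05, 7.22, 6.06 and 6.61 in parthenogenetic and 8.88, 9.33, 9.03 and 9.27 in fertilized embryos. Nmd3 read 8.67, 9.0, 8.71 and 8.56 in parthenogenetic and 10.33, 10.51, 10.75 and 10.72 in fertilized embryos. Both were lower on every parthenogenetic array, with differences of -2.39 (SE 0.23) and -1.84 (SE 0.13; limma adjusted p = 5.22e-10 and 1.66e-13). Nip7 (0.71), Rrs1 (0.46) and Npm1 (0.41) were higher. Between SCNT and parthenogenetic 1-cell embryos 23 members were higher and 2 lower in SCNT embryos, where 7% and 7.19% of all genes were (14.2% in either direction).

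Between 1-cell SCNT and fertilized embryos 4 members were higher and 2 lower (4 and 1 after median centring), where 2.87% and 2.69% of all genes were (5.56% in either direction). Tsr1 read 9.17, 9.03 and 9.19 in SCNT and 7.83, 7.85, 8.06 and 8.14 in fertilized embryos. It was 2.23-fold higher in SCNT embryos with no overlap (limma adjusted p = 2.85e-06). Gnl3, Noc3l and Wdr43 were higher as well, and Gnl2 and Brix1 lower. The count was 3 without SCNT replicate 1. With amanitin, 14 members were higher and 10 lower in SCNT than in fertilized 1-cell embryos, where 10.1% and 11.4% of all genes were (21.5% in either direction), but 6 were higher and 14 lower after median centring, so the balance of directions depends on the scaling. The poly(A) controls were 3.52 to 3.88 on 1-cell SCNT and 5.93 to 7.42 on 1-cell fertilized arrays, and their part was not tested.

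Amanitin changed few members at the 1-cell stage. In SCNT embryos Tsr1 was the called member, where 0.349% of all genes were lower and 0.0805% higher (0.429% in either direction). Tsr1 read 8.59, 8.41, 7.99 and 8.39 with amanitin and 9.17, 9.03 and 9.19 without. All treated arrays were lower, with a difference of -0.78 (SE 0.15, limma adjusted p = 0.00742), a call lost without SCNT 1-cell replicate 1 or 4 and with the mean of its probe sets. In fertilized embryos Nop56 (-0.63), Gnl3 (-0.55), Ddx18 (-0.51) and Noc3l (-0.46) were lower and Npm1 (0.26) was higher, where 2.45% of all genes were lower and 3.59% higher (6.03% in either direction). On the values as deposited all 8 called members were lower, and after median centring all 8 were higher, so no direction can be given for the members as a group. Arrays did not overlap for 9 members in SCNT and 11 in fertilized embryos, and for 9.08% and 14.5% of all genes.

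Genes of neighbouring functions were measured the same way, with amanitin in 2-cell fertilized embryos, where 25.8% of all genes were lower and 38.6% higher. Of 40 further small-subunit factors tested 38 were lower and 2 not called, with Utp11 at -5.72 (SE 0.31). Of 40 further large-subunit factors 37 were lower and 1 was higher, with Znhit3 at -6.49 (SE 0.19) and Efl1, a GTPase of the last 60S steps, at 1.98 (SE 0.19). Of 13 RNA polymerase I genes 12 were lower and 1 not called, with Polr1c, a subunit shared with RNA polymerase III, at -6.66 (SE 0.18). Of 14 RNA exosome genes 12 were lower and 1 was higher, with the cofactors C1d at -4.93 (SE 0.20) and Mphosph6 at 0.36 (SE 0.08). Of 11 genes of the MYC and MAX family 3 were lower and 2 higher, counts near or below those shares, with Myc at -2.88 (SE 0.43) and Max at 2.23 (SE 0.20). In untreated 2-cell embryos, 34 of 40 small-subunit, 34 of 40 large-subunit, 11 of 13 polymerase I and 11 of 14 exosome genes were lower in parthenogenetic than in fertilized embryos, against 21% of all genes.

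A member's other probe sets did not always follow the one that stands for it. The members have 58 other probe sets listed for 1 gene, of which 52 passed the filter. With amanitin in SCNT 2-cell embryos 36 of the 49 that belong to called members were called in the same direction, 10 were not called and 3, of Brix1, Riok2 and Wdr43, were called in the opposite direction. In fertilized embryos 36 of 50 had the same direction, 12 were not called and 2, of Brix1 and Wdr43, had the opposite one. Some that had the same direction were dim, among them probe sets of Surf6, Wdr12, Ddx21 and Gnl2, above the overall median on 5, 7, 9 and 9 arrays. Such probe sets may have passed the filter through the untreated 2-cell groups alone. They would then have had to be lower with amanitin, so their agreement carries no weight. Fewer followed in other comparisons. Between the stages in fertilized embryos 24 of 41 had the same direction, 13 were not called and 4, of Heatr1, Mdn1, Riok2 and Wdr43, had the opposite one. Such counts were not made for the stages in SCNT embryos. There, other probe sets of Dkc1, Heatr1, Noc3l, Nolc1 and Wdr43 were called lower, although the chosen ones rose. Other probe sets of Riok1 and Utp18 were called higher, although the chosen ones fell. Between SCNT and fertilized 2-cell embryos 10 of 22 had the same direction, 10 were not called and 2, of Riok1 and Wdr43, had the opposite one. These counts leave out members that were not called themselves. Among those, other probe sets of Ddx21 (-1.61), Noc3l (-1.42) and Nolc1 (-1.27) were called lower in SCNT embryos, and another of Bop1 higher (1.23).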

How the data were processed

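Of 40 hybridized samples, the column of one replicate (2, 1-cell SCNT without amanitin) holds no values and was not used (1 column). The deposited values are linear probe set intensity; their 2% trimmed mean is 150.001 on every array, a global scaling by the authors. The software is not given in the sources used here. No detection or probe-level values were used.

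Deposited intensity was not on a log2 scale and was converted here after adding 6.9, the 20th percentile. Array medians ran from 4.92 to 5.74, so log2 values were quantile normalized. The 64 control probe sets were set aside and probe sets above 5.34, the overall median, on at least 4 arrays kept. Among those that GEO's platform annotation lists for 1 gene, the one with the highest mean stood for each of 14916 genes. Group means of 39 arrays were estimated by limma 3.58.1 (R 4.3.3; trend, 29 residual degrees of freedom), and 20 contrasts, 3 of them interactions, were tested 2-sided. On simulated data for amanitin in fertilized 2-cell embryos (14916 genes), 67, 67 and 66 genes were changed by 0.5, 1 and 2 log2 units. Of these changes 17.9%, 68.7% and 95.5% were recovered, and 2.42% of 124 calls were false. In the real comparison 64.3% of genes were called, so these rates do not carry over to it. Correlation between replicates across genes was 0.94 to 0.98.

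Residuals of same-numbered samples correlated at -0.05 to 0.09, so the values show no pairing by replicate number and none was fitted. Whether same-numbered samples were collected together cannot be read from this. Members and lists were chosen with earlier results of these data known. By the naming rule, array values are given for the members with the largest and smallest absolute amanitin difference of each role, and up to 3 called members per direction and comparison are named. Others, among them Fbl, Nop58, Nob1, Bop1 and Wdr12, were named for their role after their values were seen, as were the 5 promoter motifs and the cumulus sum without Amhr2. Precision is limited by the number of arrays and, for dim probe sets, by signal over background.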

Additional observations from a re-analysis of the deposited data

Results flagged for a closer look

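Of 135 groups of 4 arrays examined, 7 had 1 array far from the other 3, where chance gives about 1 in 20. The median of the members was 10.23 on SCNT 2-cell replicate 3, against 10.07 to 10.08 on the others. Nhp2 read 11.07 on parthenogenetic 2-cell replicate 3 (others 10.83 to 10.86), and Rrp12 read 6.9 on parthenogenetic 2-cell replicate 4 (others 7.34 to 7.36). Surf6 read 4.18 on replicate 4 of the fertilized 2-cell embryos with amanitin (others 3.17 to 3.34), and Npm1 read 11.26 on replicate 3 of the SCNT 2-cell embryos with amanitin (others 11.58 to 11.61). Riok1 read 12.27 on fertilized 1-cell replicate 1 (others 12.47 to 12.51), and Nop2 read 4.77 on parthenogenetic 1-cell replicate 2 (others 6.14 to 6.21).

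The amanitin difference at the 2-cell stage differed between SCNT and fertilized embryos for 31 members by limma's interaction term, at an adjusted p under 0.05. The largest were Riok2 (1.72), Dkc1 (1.57) and Utp3 (1.40) in one direction and Nip7 (-4.22), Rrs1 (-1.68) and Ebna1bp2 (-1.51) in the other. For Riok2, Dkc1, Nip7 and Ebna1bp2 the interaction was not called on another probe set. The change between the stages differed between SCNT and fertilized embryos for 14 members, among them Gnl2 (1.07), Ncl (0.71), Nop56 (0.62), Nop2 (-2.28), Ddx52 (-1.41) and Riok2 (-1.09). It differed between parthenogenetic and fertilized embryos for 32 members, among them Riok2 (1.04), Riok1 (0.79), Ddx21 (-3.00), Tsr1 (-2.68) and Nob1 (-2.66).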

How the results depend on the processing

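With amanitin at the 2-cell stage and between parthenogenetic and fertilized 2-cell embryos, the members' counts stayed within 1.5 times and the medians kept their sign in each of the 10 settings and without each of the 39 arrays. Over all comparisons 11154 values of 591 called differences were recomputed, of which 10639 kept sign and call, 489 lost the call and 26 changed sign. Where a value moved, the cause was not tested. For amanitin in fertilized 1-cell embryos the count was 8 as deposited (all lower), 8 after median centring (all higher) and 3 with the mean of probe sets. For amanitin in SCNT 1-cell embryos limma called 0 members with the mean of probe sets, where 7 had an unadjusted p under 0.05. For SCNT against fertilized 1-cell embryos with amanitin the count was 20 after median centring (6 higher, 14 lower) and 15 with the mean of probe sets.

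After median centring the median of the members was 0.18 (amanitin, fertilized 1-cell), 1.14 (stage, SCNT), 0.26 (stage, parthenogenetic), 1.42 (stage, fertilized), -1.81 (stage with amanitin, SCNT), -1.20 (stage with amanitin, fertilized), -0.37 (SCNT against fertilized, 2-cell), -1.32 (parthenogenetic against fertilized, 2-cell), 1.01 (SCNT against parthenogenetic, 2-cell), -0.36 (SCNT against fertilized, 2-cell with amanitin), -0.18 (parthenogenetic against fertilized, 1-cell), 0.29 (SCNT against parthenogenetic, 1-cell), -0.18 (SCNT against fertilized, 1-cell with amanitin), -0.23 (interaction of amanitin and origin), -0.41 (interaction of stage and SCNT) and -1.24 (interaction of stage and parthenogenesis). Members of the opposite sign there were Dkc1 -0.22 (stage, SCNT), Npm1 -0.53 (stage, SCNT), Ncl -0.21 (stage, parthenogenetic), Wdr75 -0.047 (stage, parthenogenetic), Rrs1 -0.17 (stage, parthenogenetic), Npm1 -0.11 (stage, fertilized), Noc3l -0.24 (stage with amanitin, fertilized), Wdr43 -0.010 (SCNT against fertilized, 2-cell) and Npm1 0.0048 (SCNT against fertilized, 1-cell with amanitin). On the values as deposited the median of the members was -2.98 (amanitin, SCNT 2-cell), -0.74 (stage with amanitin, fertilized), 1.03 (SCNT against parthenogenetic, 2-cell), -0.15 (SCNT against fertilized, 2-cell with amanitin), -0.17 (interaction of amanitin and origin) and -0.93 (interaction of stage and parthenogenesis). Members of the opposite sign there were Npm1 -0.12 (amanitin, fertilized 1-cell), Npm1 -0.21 (stage, SCNT) and Npm1 0.29 (SCNT against fertilized, 1-cell with amanitin). With the mean over a gene's probe sets the median of the members was -2.45 (amanitin, SCNT 2-cell), -2.59 (amanitin, fertilized 2-cell), 1.15 (stage, SCNT), 1.21 (stage, fertilized), -1.26 (stage with amanitin, SCNT), -0.73 (stage with amanitin, fertilized), -0.93 (parthenogenetic against fertilized, 2-cell), 0.90 (SCNT against parthenogenetic, 2-cell), 0.35 (SCNT against parthenogenetic, 1-cell), -0.061 (interaction of amanitin and origin), -0.13 (interaction of stage and SCNT) and -0.91 (interaction of stage and parthenogenesis). Members of the opposite sign there were Noc3l 0.025 (amanitin, fertilized 1-cell), Heatr1 -0.013 (stage, SCNT), Wdr43 -0.34 (stage, SCNT), Noc3l -0.12 (stage, SCNT), Ddx18 0.25 (stage, SCNT), Nop56 0.67 (stage, parthenogenetic), Nolc1 -0.47 (stage, parthenogenetic), Heatr1 -0.41 (stage, parthenogenetic), Wdr43 -0.46 (SCNT against fertilized, 2-cell), Riok1 0.0014 (SCNT against fertilized, 2-cell), Utp18 0.052 (parthenogenetic against fertilized, 2-cell), Riok1 -0.19 (SCNT against parthenogenetic, 1-cell), Dkc1 0.10 (interaction of stage and parthenogenesis) and Wdr75 0.076 (interaction of stage and parthenogenesis). With the constant at the 40th percentile the median of the members was -2.99 (amanitin, SCNT 2-cell), -2.88 (amanitin, fertilized 2-cell), -1.25 (stage with amanitin, SCNT), -0.75 (stage with amanitin, fertilized) and -0.19 (SCNT against fertilized, 2-cell with amanitin). With the constant at the 5th percentile the median of the members was -3.21 (amanitin, SCNT 2-cell). With a filter on the mean over all arrays the median of the members was 0.65 (stage, parthenogenetic) and -1.15 (parthenogenetic against fertilized, 2-cell).

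Leaving out 1 array at a time gave counts of 0 (with 6 at an unadjusted p under 0.05 by limma) to 3 (amanitin, SCNT 1-cell), 3 to 8 (amanitin, fertilized 1-cell), 9 to 17 (SCNT against fertilized, 2-cell) and 3 to 8 (SCNT against fertilized, 1-cell). The medians then ran over -3.18 to -3.06 (amanitin, SCNT 2-cell), 1.41 to 1.53 (stage, SCNT), 0.56 to 0.74 (stage, parthenogenetic), 1.57 to 1.70 (stage, fertilized), -1.44 to -1.30 (stage with amanitin, SCNT), -0.95 to -0.84 (stage with amanitin, fertilized), -0.21 to -0.076 (SCNT against fertilized, 2-cell), -1.33 to -1.18 (parthenogenetic against fertilized, 2-cell), 1.08 to 1.20 (SCNT against parthenogenetic, 2-cell), -0.41 to -0.14 (SCNT against fertilized, 2-cell with amanitin), -0.051 to 0.12 (SCNT against fertilized, 1-cell), -0.50 to -0.29 (parthenogenetic against fertilized, 1-cell), 0.37 to 0.45 (SCNT against parthenogenetic, 1-cell), -0.36 to -0.23 (interaction of amanitin and origin) and -0.25 to -0.12 (interaction of stage and SCNT). The replicate block, though the values show no pairing by number, left the counts as they were except for 41 (stage with amanitin, SCNT), 7 (SCNT against fertilized, 1-cell), 32 (interaction of amanitin and origin) and 12 (interaction of stage and SCNT). The median over all genes was shifted by the scaling, for the stage in parthenogenetic embryos to 0.21 as deposited and -0.26 after median centring, against -0.04. Values near the constant have little signal over background, so large falls of dim members are uncertain in size.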
